A study of Mus musculus with 32 samples.

Results

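A set of 2437 regions of open chromatin, detected by ATAC-seq, was found in 3 kinds of mouse lung mononuclear phagocyte and had no peak in the fourth, the alveolar macrophage (AM). The regions are the peaks of the iMo C57BL6J list that overlapped, by at least 1 bp, a peak of iMo from DBA2J mice and peaks of pMo and of interstitial macrophages (IM) from both strains, and that overlapped no peak of AM from either strain. They make up 2437 of the 35947 peaks of that list and 14.1% of its 17282 peaks shared by all 6 lists of the other cell types. The other 14845 shared peaks overlapped an AM peak, 12512 of them in both strains, 1933 in DBA2J only and 400 in C57BL6J only. The regions were chosen by presence or absence in the 8 peak lists, so this pattern is given as a description. An AM list holds no value where it has no peak, so absence means that no reproducible peak was listed and not that closed chromatin was measured.

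The groups were AM DBA2J, AM C57BL6J, IM DBA2J, IM C57BL6J, iMo DBA2J, iMo C57BL6J, pMo DBA2J and pMo C57BL6J, each with 2 RNA-seq and 2 ATAC-seq libraries from untreated mice of unstated age. C57BL6J and DBA2J are inbred laboratory strains without an engineered allele in the labels, and the labels spell iMo and pMo as inflammatory and patrolling macrophages. Cells were sorted from digested lungs with antibodies to SiglecF, CD11c, CD64, F4/80, CD11b, Ly6c, Ly6g and CD45. Nothing in the labels ties replicates to different animals. The p-values therefore rest on library-to-library spread, which may be technical. The summed level of 10 AM marker genes ran from 2657 to 4175 in AM and did not exceed 764 in any library of the other types, with levels in TPM divided by a factor per library (scaled TPM). Likewise 8 pMo markers summed to between 5160 and 6232 in pMo, and to at most 1997 elsewhere. Neutrophil markers summed to between 26.0 and 40.0 in AM, against 2215 to 3800 in IM, 158 to 206 in iMo and 97.3 to 153 in pMo. B cell markers were also lower in AM in 7 of 7 tested genes, and T and NK cell markers in 5 of 8. Endothelial markers summed to between 29.6 and 121.5 in AM, 16.8 and 154 in IM, 8.97 and 21.1 in iMo and 29.1 and 39.9 in pMo. Of 5 tested endothelial genes 1 was lower and 1 higher in AM. What other cells in the sorted samples, AM included, contribute to the results below was not tested. In bulk samples fewer cells of a type and less RNA per cell cannot be told apart.

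ATAC-seq marks DNA that a transposase can enter, chiefly promoters, which start transcription, and distal elements such as enhancers, which act on promoters from a distance. Alveolar macrophages live in the airspaces, clear surfactant lipid and renew themselves locally, under the control of GM-CSF and the nuclear receptor PPARγ. Monocytes and interstitial macrophages carry programmes of migration, interferon response and microbial sensing, and macrophage enhancers are commonly bound by PU.1 together with IRF, C/EBP and AP-1 factors.

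The sequences of 6 of the regions are shown because their nearest genes carry the RNA results below. The first 4 belong to genes with less RNA in AM, namely Ifit1, an interferon-induced antiviral gene, Stx11, a syntaxin of vesicle fusion, Bcl2, which blocks apoptosis, and Rel, which encodes the NF-κB subunit c-Rel. Ralgds, a Ras-effector exchange factor for Ral GTPases, and Hebp1, a haem-binding protein, had more RNA in AM. Each sequence is the overlap of the region with the promoter window of the gene in RefSeq, build GRCm38.p6, read 5′ to 3′ on the strand of the gene. Capitals mark matches to the motifs searched, which are spelled out below, most of them GC boxes (GGGCGG or its reverse complement CCGCCC).
Ifit1: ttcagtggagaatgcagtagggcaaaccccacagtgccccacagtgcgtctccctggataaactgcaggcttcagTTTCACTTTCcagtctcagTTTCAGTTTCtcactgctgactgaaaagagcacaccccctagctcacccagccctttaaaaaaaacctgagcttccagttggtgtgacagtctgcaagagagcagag
Stx11: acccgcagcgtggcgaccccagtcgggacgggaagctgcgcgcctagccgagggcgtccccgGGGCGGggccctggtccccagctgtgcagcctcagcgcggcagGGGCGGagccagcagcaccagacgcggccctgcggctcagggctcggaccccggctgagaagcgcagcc
Bcl2: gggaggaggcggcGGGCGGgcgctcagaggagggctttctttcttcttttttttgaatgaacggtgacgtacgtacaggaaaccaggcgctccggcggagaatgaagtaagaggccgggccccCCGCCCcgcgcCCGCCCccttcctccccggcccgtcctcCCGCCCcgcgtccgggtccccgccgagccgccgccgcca
Rel: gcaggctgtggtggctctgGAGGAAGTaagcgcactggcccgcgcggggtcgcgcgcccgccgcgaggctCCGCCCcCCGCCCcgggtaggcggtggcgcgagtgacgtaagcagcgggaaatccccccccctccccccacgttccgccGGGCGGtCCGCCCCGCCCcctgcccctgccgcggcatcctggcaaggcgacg
Ralgds: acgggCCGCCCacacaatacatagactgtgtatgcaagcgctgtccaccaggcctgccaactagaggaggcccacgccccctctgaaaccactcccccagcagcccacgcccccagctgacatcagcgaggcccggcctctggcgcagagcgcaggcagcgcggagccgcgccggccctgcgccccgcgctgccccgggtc
Hebp1: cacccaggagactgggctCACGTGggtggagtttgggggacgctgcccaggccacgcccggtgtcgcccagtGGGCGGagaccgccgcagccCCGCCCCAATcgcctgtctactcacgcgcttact
These stretches lie at chr19:34640710-34640910 on the plus strand, chr10:12964210-12964383 on the minus strand, chr1:106714261-106714461 on the minus strand, chr11:23770977-23771177 on the minus strand, chr2:28533311-28533511 on the plus strand and chr6:135168166-135168291 on the minus strand. Here and below, the nearest AM peak is the nearest in either strain, unless a strain is named. It was centred 7124 bp from the Ifit1 region, 28078 bp from that of Stx11 and 18448 bp from that of Bcl2. In C57BL6J alone the nearest was 41356 bp from the Ifit1 region and 45388 bp from that of Bcl2. For Rel the distance was 209 bp, for Ralgds 251 bp and for Hebp1 1227 bp. The Ifit1 stretch holds 2 matches to the interferon-stimulated response element and 1 CpG, the Stx11 stretch 20 CpGs and the Bcl2 stretch 26 CpGs. The capitals in Stx11, Bcl2 and Ralgds are all GC boxes. The Rel stretch holds a PU.1 match beside GC boxes, and Hebp1 an E-box and a CCAAT box beside GC boxes.

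Promoter windows run from 250 bases before to 50 bases after a RefSeq start. Of the 2437 regions, 840 met such a window, and the regions met 1007 distinct windows of 32544 in all. They were set against 6303 windows met by a peak of all 8 lists and by no region. These 6303 are called windows met by peaks of all 8 lists below. The CCAAT box, bound by NF-Y and written CCAAT on either strand, was in 242 windows met by the regions, or 24.0% (95% Clopper-Pearson interval 21.4% to 26.8%). It was in 47.2% of windows met by peaks of all 8 lists (45.9% to 48.4%) and in 37.4% of all windows. The intervals cover counting error only, and neighbouring windows are not independent. The median GC content was close, at 64.0% in windows met by the regions and 62.7% in those met by peaks of all 8 lists, but its distribution differed. Windows with 70 to 80% GC were 272 of the 1007 met by the regions and 1081 of the 6303 met by peaks of all 8 lists. Among windows with 60 to 70% GC, CCAAT was in 21.9% of 320 windows met by the regions and in 46.6% of 2906 windows met by peaks of all 8 lists. At 50 to 60% GC it was in 34.72% of windows met by the regions and 54.97% of those met by peaks of all 8 lists, and at 70 to 80% GC in 13.97% and 34.97%. In windows met by no AM peak the share was 23.9% of 917.

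Other motifs differed less, in percentage points, between windows met by the regions and windows met by peaks of all 8 lists. The ETS motif CCGGAAG was in 19.6% of windows met by the regions, 24.0% of those met by peaks of all 8 lists and 8.91% of all windows, and the longer PU.1 form GAGGAAGT in 1.89%, 3.78% and 3.11% in the same order. The GC box GGGCGG, which Sp1 binds, was in 70.9%, 73.0% and 35.9%. The cAMP response element TGACGTCA was in 5.76%, 3.79% and 1.80%, the NRF1 motif, GCGCA followed by TGCGC, in 3.77%, 2.55% and 0.97%, the YY1 motif, AAGATGG followed by CGGC, in 2.98%, 2.00% and 0.64%, and the E-box CACGTG in 13.7%, 10.8% and 7.17%. The interferon-stimulated response element, GAAA repeated with 2 bases between, was in 3.48%, 2.48% and 3.45%, the AP-1 motif TGANTCA in 3.18%, 4.06% and 7.79%, and the C/EBP motif TTGCNNAA in 6.36%, 8.03% and 10.8%. All were searched on both strands, and matches to the GC box and to the KLF motif CCCCACCC can share bases. TATAAA was in 6.26%, 4.66% and 13.6%, the KLF motif in 11.8%, 11.2% and 10.1%, and the NF-κB motif, GGGA, any base and TTTCC, in 0.40%, 0.38% and 0.41%. A match describes letters in the window and not binding.

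**Figure D1:**
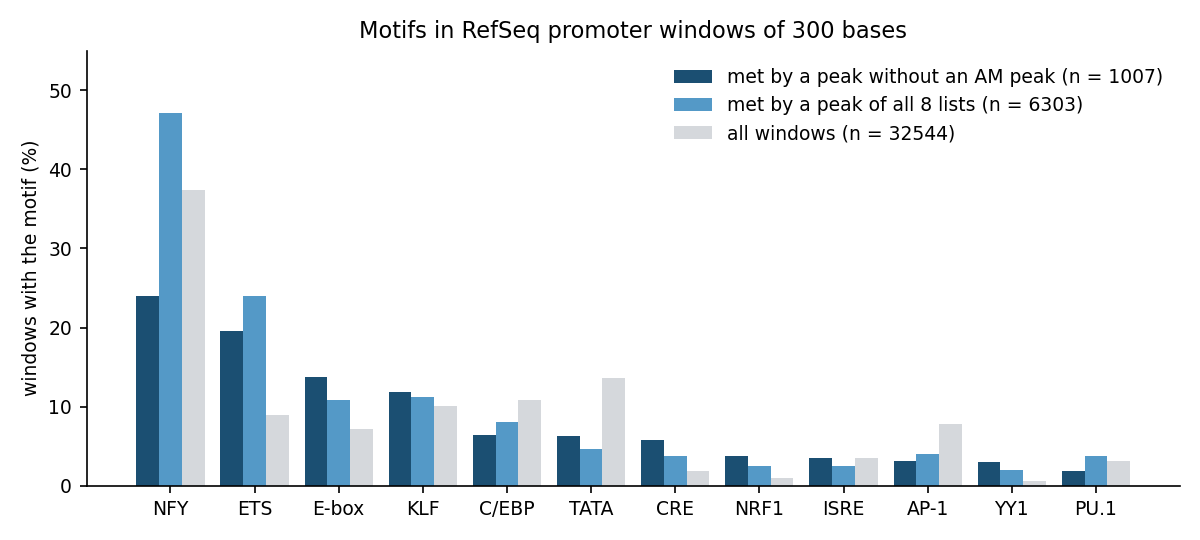
Share of 300-base RefSeq promoter windows (vertical axis, percent) that hold each of 12 motifs. Windows are those met by the regions without an AM peak, those met by peaks of all 8 lists and by no region, and all windows. CCAAT, labelled NFY, was in 24.0% of windows met by the regions and 47.2% of those met by peaks of all 8 lists, the widest gap of the 12 in percentage points.

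Just over 1 in 2 of the regions sat at a gene start, as did the peaks that all cell types shared. The centre of 1309 regions (53.7%) lay within 1 kb of the nearest transcription start in the deposited gene table, against 6724 of the 12512 peaks of all 8 lists (53.7%). A further 315 regions (12.9%) lay 1 to 10 kb away, 641 (26.3%) 10 to 100 kb away and 172 (7.06%) farther, against 16.4%, 25.7% and 4.16% of the peaks of all 8 lists. The regions were placed less tightly on the start, with 35.6% within 200 bp of it against 41.2% of the peaks of all 8 lists. Centres within an annotated gene body made up 63.8% of the regions and 58.5% of the peaks of all 8 lists. The table gives 1 start per gene, so that a region at an alternative start, as in Irf5, counts as distal. Exons and introns were not used here.

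**Figure D2:**
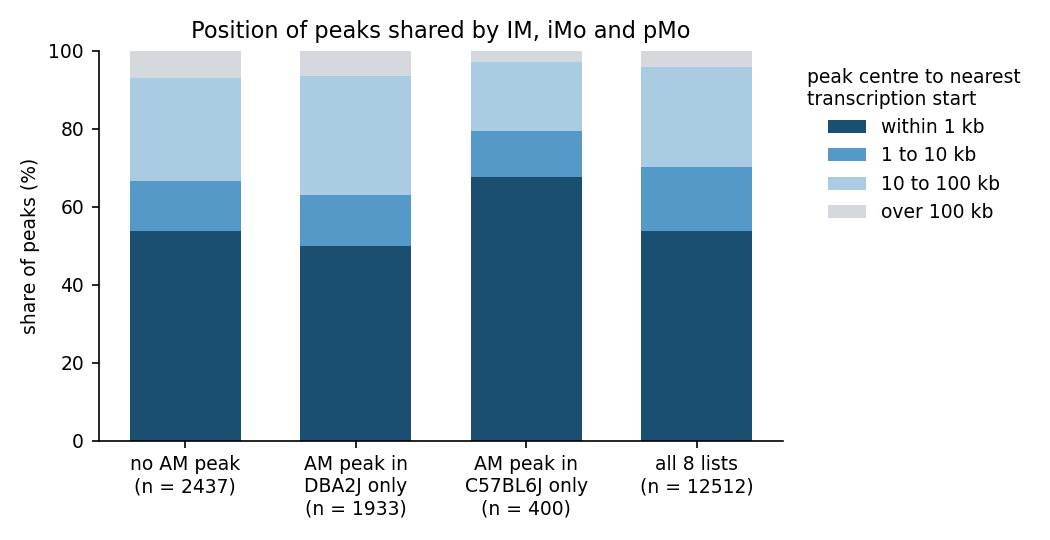
Share of peaks (vertical axis, percent) in 4 classes of distance from the peak centre to the nearest transcription start, for peaks of all 6 IM, iMo and pMo lists split by their presence in the AM lists. The share within 1 kb was 53.7% for the 2437 regions without an AM peak and for the 12512 peaks of all 8 lists, and 67.5% for the 400 peaks with an AM peak in C57BL6J only.

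The regions were spread over the genome, and among the autosomes and X their share was highest on X. Of 363 shared peaks on chromosome X, 86 (23.7%) had no AM peak, while on the autosomes this share ran from 8.41% on chromosome 19 to 18.3% on chromosome 13. All 5 shared peaks on chromosome Y were among the regions. The sex of the mice was not used here, and its bearing on the X and Y shares was not tested. Most regions stood alone: 2109 had no other region within 10 kb, and the other 328 formed 159 groups, 10 of them with 3 or more.

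Peaks among the regions were of moderate height in the cells that had them. The authors' signal, of unstated scale, had a median of 84.6 in the regions and 127.5 in the peaks of all 8 lists, both read in the iMo C57BL6J list. Ranked within each list and averaged over the 6 lists, the regions lay at a median percentile of 55.3 and the peaks of all 8 lists at 75.2. Among the 16 regions whose nearest AM peak centre lay within 220 bp, just short of overlap, the median iMo C57BL6J signal was 129.4. It was 154.0 for the 21 shared peaks that an AM peak overlapped by 1 to 20 bp.

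Many promoter regions bordered an AM peak, whereas few distal ones did. An AM peak was centred within 500 bp of 380 promoter regions (29.0%) and of 85 distal regions (7.54%), and within 1 kb of 576 (44.0%) and 151 (13.4%). The median distance to an AM peak was 2092 bp for promoter regions and 10790.5 bp for distal regions. The border was commonest among the highest peaks. Of the 609 regions ranked highest, 26.8% had an AM peak within 500 bp and 73.7% were at promoters, against 11.8% and 35.6% of the 610 ranked lowest. Of the 8 regions with the best mean rank, 7 lay 212 to 343 bp from an AM peak centre, among them those at the starts of Sp4, a transcription factor of the Sp family, Aktip, Amz2, Mtrf1l and Fam160a2. The region nearest to Lrrc4c, 1194697 bp from its start, was also among the 8, and it lies in a stretch of chromosome 2 known for artefactual high signal in mouse sequencing data. A list of 200 bp peaks does not tell a shifted peak from a missing one. With every AM peak widened by 1 kb, 710 promoter regions were left.

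**Figure D3:**
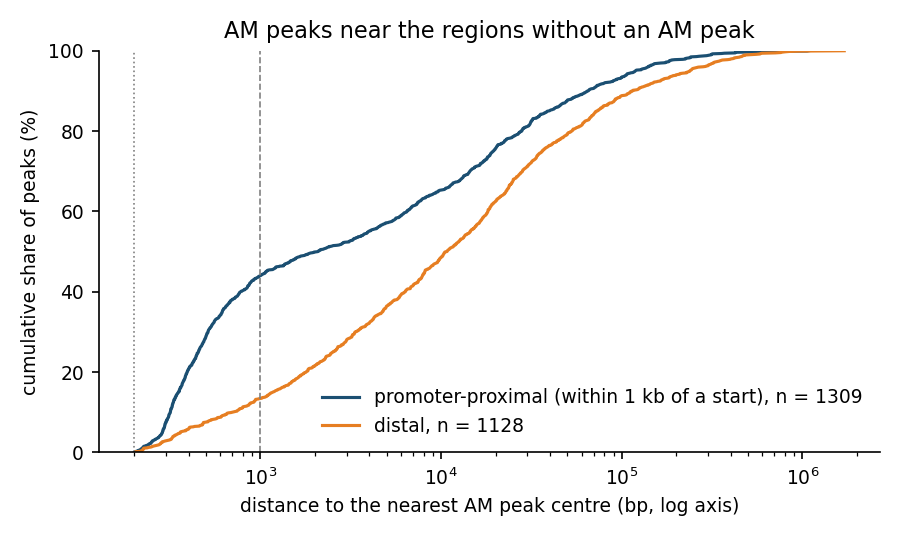
Cumulative share of regions (vertical axis, percent) by distance from the region's centre to the nearest AM peak centre of either strain (horizontal axis, bp, log scale), for 1309 promoter-proximal and 1128 distal regions. The dotted line marks 200 bp and the dashed line 1 kb, by which 44.0% of promoter-proximal and 13.4% of distal regions had an AM peak.

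RNA, which the choice of regions did not use, was lower in AM for the nearest genes more often than for genes at large, and the share was higher for genes of distal regions than for those of promoter regions. The 2265 regions within 100 kb of a start were assigned to 1982 genes by the nearest start. Whether a region acts on the gene assigned to it was not tested. Of the 1982 genes, 1552 passed a level filter (1 TPM or more on average across the 16 libraries) and 430 did not. AM was compared with the mean of IM, iMo and pMo by limma on log2(scaled TPM + 1), with Benjamini-Hochberg adjustment over all 12277 tested genes. Of the 1552 genes, 651 (41.9%) were lower in AM, where 31.2% of all tested genes were, and 371 (23.9%) were higher, where 32.3% of all tested genes were. Genes of distal regions were lower in 290 of 560 (51.8%) and higher in 110 (19.6%). Genes of promoter regions were lower in 413 of 1081 (38.2%) and higher in 271 (25.1%), and 104 genes had regions of both kinds. The median log2 difference was -0.38 for genes of distal regions, -0.11 for genes of promoter regions and 0.03 for all tested genes. The split into distal and promoter regions was chosen after the data were seen. On TPM as deposited, where tested genes as a whole had a median log2 difference of -0.55, 72.4% of the genes of the regions were lower and 7.67% higher in AM, against 59.3% and 12.5% of all tested genes.

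Genes of distal peaks that AM also had were often lower in AM as well. Near distal peaks of all 8 lists, genes were lower in AM in 41.7% of 2644 and higher in 30.0%. Where a gene had a distal region but no distal peak of all 8 lists, 44.8% of 308 were lower and 20.5% higher. Peaks with an AM peak in DBA2J only had genes lower in 38.0% of 1312 and higher in 27.1%, and those with an AM peak in C57BL6J only in 34.7% and 33.4% of 329. Genes of promoter peaks of all 8 lists were lower in 30.6% of 5612 and higher in 34.2%. Whether these shares differ from those of the regions was not tested, since the sets overlap in genes. Past a 2-fold difference, 27.1% of genes of distal regions and 13.4% of genes of promoter regions were lower in AM, where 11.8% of all tested genes were. Promoter regions with no AM peak within 1 kb had genes lower in AM in 37.5% of 546, and distal ones in 52.7% of 450.

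**Figure D4:**
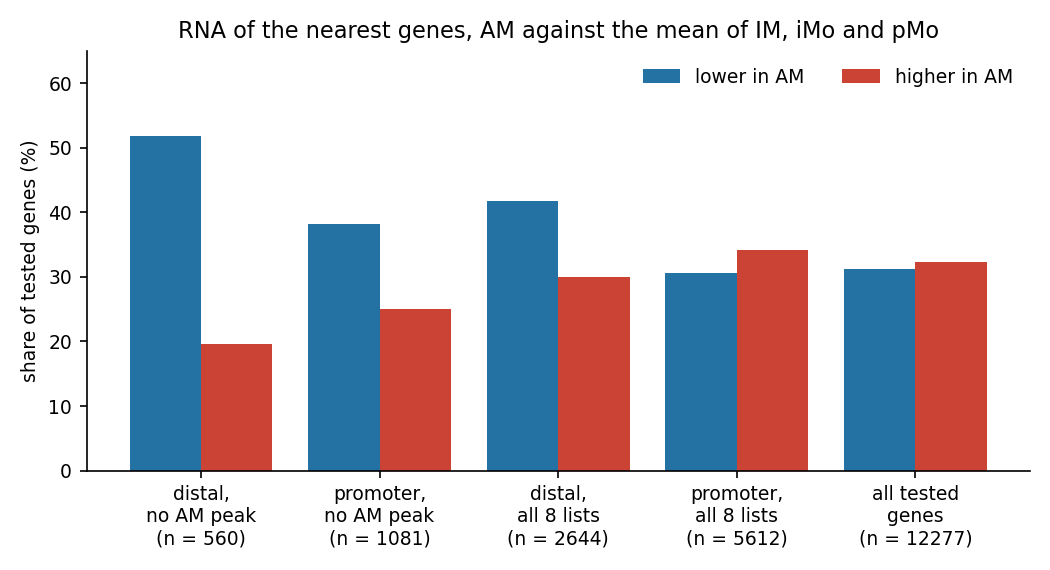
Share of tested genes (vertical axis, percent) called lower or higher in AM than in the mean of IM, iMo and pMo, at an adjusted p under 0.05 in limma, by the kind of peak nearest to them. Genes of distal regions without an AM peak stood at 51.8% lower and 19.6% higher, and all tested genes at 31.2% lower and 32.3% higher.

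The difference was not carried by any of the 3 other cell types alone. Genes of the regions were lower in AM than in IM in 645 of 1552 (41.6%, all tested genes 30.0%), lower than in iMo in 576 (37.1%, all tested genes 27.5%) and lower than in pMo in 595 (38.3%, all tested genes 29.7%). They were lower than in each of the 3 in 428 (27.6%), where 18.1% of all tested genes were. These comparisons share the AM libraries. For 323 genes (20.8%) every AM library lay below all 12 others, where 13.4% of all tested genes did, and for 148 (9.54%) every AM library lay above, again with 13.4% of all tested genes. Among genes with 1 region, 39.6% were lower in AM and 25.8% higher. With 2 regions, 97 of 166 (58.4%) were lower, and with 3 or more, 16 of 28 (57.1%) were lower and none was higher. Of 63 X-linked genes of the regions 29 were lower and 8 higher in AM, against 136 lower and 91 higher among 364 X-linked tested genes.

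The 12 genes with the lowest difference, among those below every other library in all 4 AM libraries, include genes of sensing and defence, membrane traffic and survival, and 10 of them are described. Tlr9, the endosomal receptor for unmethylated CpG DNA, was at 2.05 and 1.68 scaled TPM in AM DBA2J and 2.51 and 1.53 in AM C57BL6J, against a lowest of 108, a median of 189 and a highest of 395 in the 12 other libraries. That every AM library lay below every other one was a condition for choosing these genes. The log2 difference of Tlr9 was -6.07 ± 0.14 (SE, limma adjusted p = 1.76e-10). The region of Tlr9 lay 7576 bp from the start and 325 bp from an AM peak in DBA2J, with the nearest in C57BL6J 12759 bp away. It was the only region of the 12 genes within 500 bp of an AM peak. Ifitm3, an interferon-induced membrane protein that blocks viral entry, was at 24.6 and 39.6 in AM DBA2J and 5.48 and 6.40 in AM C57BL6J, against 666 to 4631 scaled TPM in the other libraries. Its log2 difference was -6.86 ± 0.16 (adjusted p = 2.43e-10). Pglyrp1, which binds bacterial peptidoglycan, was between 1.09 and 3.39 in AM, against 24.3 to 329 in the others. Plbd1, a phospholipase B-like protein, was between 0.173 and 0.905 in AM, against 36.3 to 137. Its region lay 54335 bp from the start, within the body of Gucy2c. Serpinb10, a serine protease inhibitor, did not exceed 0.606 in AM, against 8.74 to 94.4. Pglyrp1 is also made by neutrophils, whose markers were far higher in IM, as given above, and its part in that difference was not tested.

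Genes of the cytoskeleton, membrane traffic and survival followed. Marcks, an actin-binding substrate of protein kinase C, had 4 regions, at its start and up to 97272 bp away. It was at 5.29 and 3.28 scaled TPM in AM DBA2J and 0.890 and 0.793 in AM C57BL6J, against a lowest of 92.2, a median of 216 and a highest of 345 in the others (log2 difference -6.01 ± 0.11, adjusted p = 5.93e-11). The promoter region of Marcks ranked between the 82.3 and the 93.4 percentile of the 6 lists. The nearest AM peak was 1850 bp away in DBA2J and 51340 bp away in C57BL6J. Stx11, whose sequence is above, was at 1.35, 0.507, 0.310 and 0.402 in AM, against 14.8 to 67.2 in the others, with a log2 difference of -4.64 ± 0.14 (adjusted p = 1.06e-09). Bcl2, with a region at its start and another 1788 bp from it, was at 2.36 and 5.58 in AM DBA2J and 0.892 and 0.771 in AM C57BL6J. In the others it was at 28.5 to 131 (log2 difference -4.28 ± 0.18, adjusted p = 6.86e-09). Fam49a, with 3 regions, and Rcsd1, with 2, reached at most 1.42 and 1.45 in AM and were at least at 12.1 and 14.5 elsewhere. Together the 12 genes had 19 regions, 7 of them at promoters, at a median of 8653 bp from an AM peak.

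**Figure D5:**
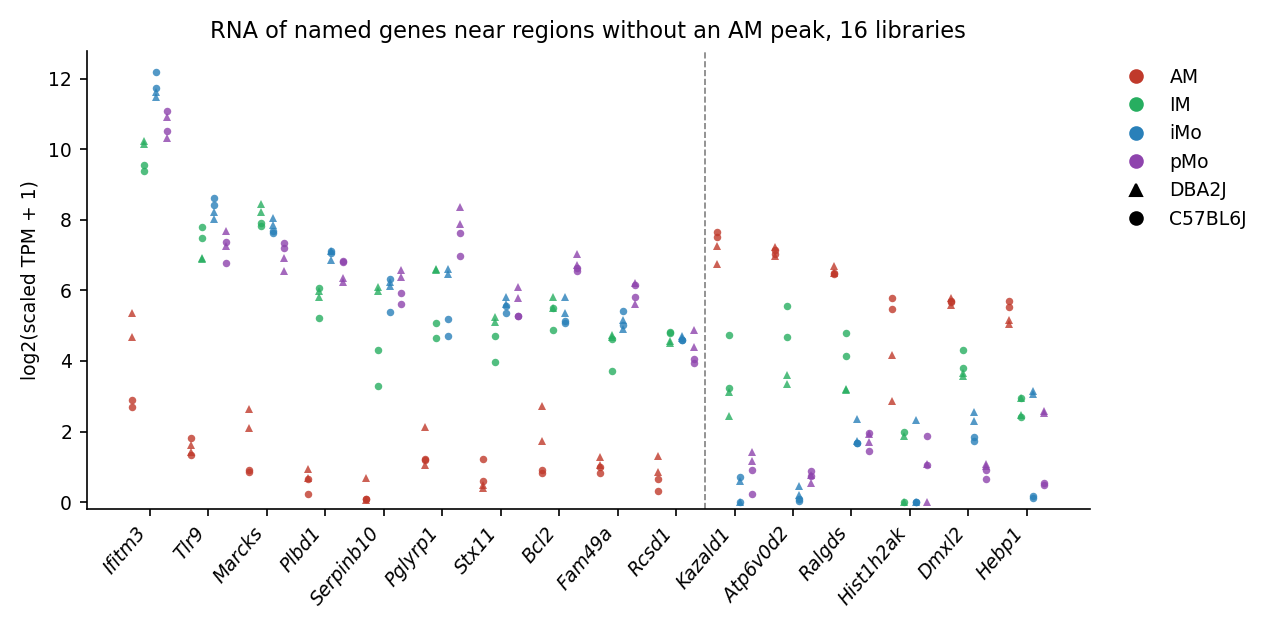
RNA level (vertical axis, log2 of scaled TPM + 1) in the 16 libraries of 10 of the 12 genes with the lowest and the 6 with the highest difference in AM, divided by the dashed line. Each point is 1 library, coloured by cell type, with triangles for DBA2J and circles for C57BL6J. For the 10 genes on the left every AM library lies below every other, which was a condition of their choice. For the 6 on the right every AM library lies above, which was not a condition.

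The tested transcription factors with a region were all lower in AM against the mean of the other types, although Klf6 passed the test in C57BL6J and not in DBA2J. Of 65 tested factors on a list of monocyte and macrophage regulators, 39 were lower and 15 higher in AM (median log2 difference -0.67), where 31.2% of all tested genes were lower. All 9 with a region were lower (median -1.46), among them Irf5, Klf6, Nr4a2, Bach1, Bach2, Nfkb1, Rel and Ets1. Klf6, a Krüppel-like factor, was at 137 and 157.8 scaled TPM in AM DBA2J and 131.9 and 121.7 in AM C57BL6J, with a log2 difference of -0.005 (limma adjusted p = 0.97) in DBA2J and -0.615 (adjusted p = 0.000273) in C57BL6J. The test of the difference between strains called it (adjusted p = 0.0297), and in DBA2J it was above pMo, at 97.0 and 97.4. Irf5, which acts downstream of Toll-like receptors, was between 45.8 and 75.7 scaled TPM in AM, against 151 to 527, with a log2 difference of -2.32 ± 0.11 (adjusted p = 2.25e-08). Rel was at 8.69, 8.26, 9.73 and 11.0 in AM, against 15.3 to 58.3 in the others (log2 difference -1.74 ± 0.17, adjusted p = 7.54e-06). Ets1, with 2 distal regions, was at 0.491 to 4.46 in AM and overlapped the others, at 2.41 to 21.8, through the iMo libraries (log2 difference -1.94 ± 0.18, adjusted p = 3.63e-06).

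Among interferon-response and microbial-sensing genes, all those with a region that were tested were lower in AM. For interferon genes this was also so of nearly the whole list, with or without a region. Of 38 tested interferon genes 37 were lower in AM and none higher, where 31.2% of all tested genes were lower. Of the 38, 8 had a region: Ifit1, Ifit2, Usp18, Ddx58, Ifitm3, Gbp3, Ifngr1 and Ifngr2. These 8 had a median log2 difference of -2.44, close to the -2.42 of all 38. Ifit1 was at 0.640 and 0.557 scaled TPM in AM DBA2J and 0.139 and 0.314 in AM C57BL6J, against a lowest of 1.53, a median of 9.62 and a highest of 17.8 in the others (log2 difference -2.44 ± 0.15, adjusted p = 1.76e-07). The lowest of the others were pMo. Usp18, which removes ISG15 and damps interferon signalling, was at most at 0.618 in AM and at least at 6.18 in the others. Of 35 sensing genes 22 were lower and 7 higher in AM. The 6 with a region, Tlr9, Irak3, Irak4, Ly96, Aim2 and Casp4, were all lower. Irak3, a brake on Toll-like receptor signalling, had 2 regions at its promoter and was between 3.59 and 5.62 in AM, against 9.50 to 23.1 in the others. Casp4, the receptor of cytosolic lipopolysaccharide, was between 4.28 and 6.92 in AM, against 9.93 to 32.2. Aim2, which senses cytosolic DNA, was between 12.7 and 19.7 in AM and met the range of the others, 16.0 to 47.5. In the NF-κB list 18 of 30 were lower and 4 higher in AM, and both genes with a region, Tnip3 and Birc3, were lower than the mean of the other types. Tnip3 was low throughout, at 0.0377 to 0.320 in AM, and overlapped the others, at 0.293 to 2.66. It did not pass the test against iMo alone (limma adjusted p = 0.0863). Birc3, an inhibitor of apoptosis that is an NF-κB target, was between 12.1 and 16.0 in AM, against 51.3 to 88.0 in the others.

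Adhesion, receptor and signalling genes gave a more mixed picture. Of 30 adhesion genes 17 were lower and 8 higher in AM. Of the 4 with a region 3 were lower, Alcam and Itgb1 among them, and Itga1, the collagen-binding integrin α1, did not pass the test. Itgb1 was between 43.8 and 59.4 scaled TPM in AM and overlapped the others, at 34.6 to 108. Its log2 difference was 0.20 against iMo (limma adjusted p = 0.162), and it did not pass against the mean in DBA2J (adjusted p = 0.12). Itga1 was between 1.42 and 2.13 scaled TPM in AM, below iMo at 4.25 to 5.81 and above pMo at 0.543 to 0.791. S1pr1, the sphingosine-1-phosphate receptor of tissue egress, was between 2.60 and 14.4 in AM and overlapped the others, at 4.93 to 96.1, whose highest values were those of IM. The log2 difference of S1pr1 was 0.055 against iMo (limma adjusted p = 0.81). In DBA2J it was at 10.5 and 14.4 in AM, above iMo at 7.08 and 5.97. Among 38 cytokine receptors and signal genes 22 were lower and 12 higher in AM, and of the 6 with a region 5 were lower. Smad3, which carries TGF-β signals, was at most at 0.491 in AM and at least at 6.96 in the others, a log2 difference of -3.60 ± 0.10 (adjusted p = 5.50e-10). Hes1, a Notch target, was at 0.778, 0, 1.71 and 2.43 in AM, against 5.21 to 51.0. Flt3, the receptor of FLT3 ligand, reached 0.329 in AM and 1.04 to 7.88 elsewhere. Il2rg, the common γ chain on chromosome X, was between 53.8 and 80.9 in AM, against 126 to 288. The exception was Il6st, gp130, the shared receptor of the IL-6 family, which averaged 41.6 scaled TPM in AM and 23.5 in IM, 32.3 in iMo and 20.1 in pMo, and was higher in AM (log2 difference 0.72). All 4 genes with a region on the list of actin and kinase signalling were lower, where 32 of 48 were lower and 5 higher. Among them Arhgap15, a Rac GTPase-activating protein, was between 0.546 and 2.48 in AM, against 7.95 to 24.7, and Rap1a, an integrin-activating GTPase, between 5.90 and 9.24, against 15.5 to 53.4. Cd93 and Msr1, the scavenger receptor SR-A, were the phagocytosis genes with a region. Both were lower in AM than the mean of the other types, while 21 of 32 on that list were lower and 5 higher. Both overlapped the others, Cd93 at 46.3 to 74.3 in AM against 26.2 to 902 and Msr1 at 0.999 to 10.6 against 5.10 to 40.9. In C57BL6J, Cd93 was at 46.3 and 50.0 in AM, above pMo at 33.1 and 26.2. In DBA2J, Msr1 was at 8.97 and 10.6 in AM and at 10.6 and 9.40 in pMo. No gene on the list of MHC class II and costimulation had a region, though 15 of 20 were lower in AM. Nor did any of the 26 tested genes of alveolar macrophage lipid metabolism, of which 22 were higher and 1 lower. Of 27 chemokine receptor and trafficking genes 15 were lower and 7 higher, and S1pr1 was the only one with a region.

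A few genes gathered several regions. Of the 11 genes with 4 or more, Mef2c and D1Ertd622e had 6 each and Atf7ip 5. Mef2c, a MADS-box factor of myeloid and lymphoid cells, had no region at its start, and its 6 regions lay 11936 to 76418 bp from it, the nearest AM peak at least 13384 bp from any of them. It was at 0.612 and 0.884 scaled TPM in AM DBA2J and 0.183 and 0.245 in AM C57BL6J, against a lowest of 7.93, a median of 16.25 and a highest of 24.9 in the others (log2 difference -3.52 ± 0.13, adjusted p = 2.86e-09). P2ry1, an ADP receptor, had 4 regions, 2 of them at its start, and no AM peak within 168244 bp of any. It reached 0.273 in AM, against 3.47 to 23.4, with iMo the highest. Rasgrp1, an activator of Ras, was at most at 0.492 in AM, against 2.88 to 14.55, and Bcl11a, a repressor needed for B cell and plasmacytoid dendritic cell development, at most at 0.454, against 1.58 to 12.95. Sash1 was at most at 1.21 in AM, against 2.02 to 8.29. D1Ertd622e was between 13.6 and 19.8 in AM, against 26.2 to 47.3, and Atf7ip, a cofactor of heterochromatin formation, between 9.85 and 12.4, against 14.3 to 22.0. Pisd-ps1, a pseudogene whose reads may belong to its parent gene, overlapped between AM and the others and did not pass the test. Etv1 and Fhit were under the filter, at no more than 2.52 and 0.707 scaled TPM in any library.

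Some genes with a region had more RNA in AM. The 6 with the highest difference had 1 region each, 5 of them within 1 kb of the start, and an AM peak lay within 500 bp of 3. Ralgds was at 102 and 89.5 scaled TPM in AM DBA2J and 87.6 and 89.0 in AM C57BL6J, against a lowest of 1.75, a median of 2.87 and a highest of 26.9 in the others (log2 difference 4.05 ± 0.15, adjusted p = 2.96e-09). Kazald1, a secreted Kazal-type protein, was between 107 and 199 in AM, against 0 to 25.7, highest in IM. Atp6v0d2, a subunit of the proton pump of lysosomes, was between 124 and 148 in AM, against 0.0294 to 46.1, with a region 21266 bp away. Dmxl2, a regulator of that pump, was between 47.3 and 54.5 in AM, against 0.565 to 18.8. Hebp1 was between 31.9 and 51.2 in AM, against 0.0953 to 7.87. Hist1h2ak, a replication histone with near-identical copies that share reads, was between 6.34 and 54.4 in AM, against 0 to 4.01. Over all genes at least 2-fold higher in AM, an AM peak lay within 1 kb of 41 of 81 promoter regions (50.6%) and 8 of 44 distal regions (18.2%). For genes at least 2-fold lower these were 56 of 151 (37.1%) and 25 of 191 (13.1%). For genes that passed in neither direction they were 181 of 428 (42.3%) and 40 of 176 (22.7%). Over all called genes, whatever the size of the difference, the shares at promoters were 134 of 278 (48.2%) for genes higher in AM and 211 of 440 (48.0%) for genes lower in AM, and for distal regions they were 20 of 113 (17.7%) and 50 of 353 (14.2%).

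The AM difference of the nearest genes depended on strain for few of them. A test of the difference between strains called 41 of 1552 genes (2.64%), where it called 3.62% of all tested genes, 18 of them with a more negative AM difference in DBA2J and 23 with a more positive one. In 9 the difference had opposite signs in the strains. Of these, Fam78b, Bend4, Sptbn1 and Trim36 passed the limma test within both strains. The others passed in DBA2J or in C57BL6J but not in both, as Crim1, at -0.016 in C57BL6J (adjusted p = 0.943) and 1.192 in DBA2J. Within DBA2J 522 genes (33.6%) were lower in AM, where 24.7% of all tested genes were, and within C57BL6J 579 (37.3%), where 27.1% were. Leaving out any 1 of the 4 AM libraries lowered the count of strain-dependent genes to between 22 and 25, and leaving out either IM C57BL6J library gave 61 or 56. DBA2J reads were placed on a genome build that represents C57BL6J, and what this does to peaks and levels was not tested.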

How the data were processed

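RNA-seq and ATAC-seq of AM, IM, iMo and pMo from 2 strains were used, 16 libraries of each kind. Per the submitters' processing notes the build was mm10 and the tools STAR, Bowtie and HOMER, without versions. RNA levels are TPM per gene as the authors deposited them for 24940 genes. Their length equals the genomic span in 99.2% of genes, so levels of different genes were not compared. Peaks are the authors' lists, 1 per cell type and strain from 2 libraries, of 200 bp with a deposited signal and a second score, of which the signal was used. Counts were not used here, so read depth is unknown and replicate spread alone gives the precision.

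Peaks were intersected in Python 3.11.15 (numpy 2.4.6, pandas 2.3.3, scipy 1.17.1, matplotlib 3.10.9), with regions assigned to the nearest of the deposited starts within 100 kb. TPM were divided by a median-of-ratios factor per library, 0.637 to 0.772 in AM and 0.816 to 1.35 elsewhere, because ribosomal entries took 64.3% to 67.6% of the TPM in AM and 22.6% to 57.4% elsewhere. The 12277 genes averaging 1 TPM or more were fitted as log2(scaled TPM + 1) in limma 3.58.1 (R 4.3.3), with a mean per group, 8 residual degrees of freedom and a variance trend, with Benjamini-Hochberg adjustment and a threshold of 0.05. The log2(scaled TPM + 1) scale understates the change of low genes. The fit was tested on simulated data. Promoter sequences came from RefSeq (GRCm38.p6), the sequences of distal regions were not used here, and 14 motifs were searched.

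Genes were named by a rule. The 12 with the lowest difference had to be called lower against each other type, with every AM library below all others. They also had to reach 10 scaled TPM in at least 1 other type. The 6 with the highest difference had to be called higher than the mean, with at least 10 scaled TPM in AM. Genes with 4 or more regions and up to 4 genes of each of 11 lists were added. Some genes that the rule names are not reported here. Il6st and the 8 best-ranked peaks were chosen after their values were seen. The regions and gene lists were chosen with earlier results of these data known. Alternatives covered scaling, pseudocount, filter, trend, replicate block, left-out libraries, single strains, assignment distance, overlap and peak signal.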

Additional observations from a re-analysis of the deposited data

Results flagged for a closer look

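The difference between AM and the mean of IM, iMo and pMo was not the same in the strains for 41 genes of the regions by limma's test of that difference, 9 of them genes that the lists or the naming rule single out. Marcks was lower in AM in both strains, by a log2 difference of -5.30 in DBA2J and -6.72 in C57BL6J, a difference between strains of 1.42 ± 0.21 (SE, adjusted p = 0.00415). For Ifitm3 these were -5.77 in DBA2J and -7.95 in C57BL6J, 2.18 ± 0.32 apart (adjusted p = 0.00389). Msr1 differed by 1.70 ± 0.26 (adjusted p = 0.00452), with 8.97 and 10.6 scaled TPM in AM DBA2J against 0.999 and 1.19 in AM C57BL6J. S1pr1 differed by 1.79 ± 0.28 (adjusted p = 0.00553), and it was lower in AM in C57BL6J (-2.15) but did not pass the test in DBA2J (-0.36, adjusted p = 0.155). Cd93, at -3.07 in DBA2J and -1.17 in C57BL6J, differed by -1.90 ± 0.17 (adjusted p = 0.000136), and its libraries of the other types stood at 337 to 902 scaled TPM in DBA2J and at 26.2 to 238 in C57BL6J. Dusp6, a phosphatase of ERK, differed by -1.94 ± 0.18 (adjusted p = 0.000166), with 29.7 and 31.9 in AM DBA2J against 92.0 and 79.7 in AM C57BL6J. Hebp1, higher in AM, differed by -2.20 ± 0.22 (adjusted p = 0.000284), and in iMo it was at 7.44 and 7.87 in DBA2J against 0.131 and 0.0953 in C57BL6J. Klf6 differed by 0.61 ± 0.13 (adjusted p = 0.0297), with its values given above. Ifngr1, a chain of the interferon-γ receptor, was lower in AM in both strains, by a log2 difference of -2.41 in DBA2J and -1.68 in C57BL6J, and differed by -0.73 ± 0.17 (adjusted p = 0.0419).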

How the results depend on the processing

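The median difference of the nearest genes stayed negative under every alternative run, but its size rests on the scaling. On TPM as deposited 1124 genes were lower and 119 higher, 794 were lower than each other type and the median was -0.74, with 778 promoter genes lower, but 59.3% of all tested genes were then lower and their median was -0.55. Without Rn45s and Mir6236 the median was -0.30 (all tested genes -0.11), and with every gene above 0 it was -0.09. Within 1 kb of a start 413 genes were lower (38.2%), 260 lower than each type and 21 strain-dependent, with a median of -0.11. With AM peaks widened by 1 kb 413 were lower (43.4%) and 218 higher (22.9%), with 710 regions left at promoters. In the upper 50% of regions by rank 368 were lower (42.4%), 193 higher (22.3%), 243 lower than each type and 23 strain-dependent. These alternatives keep the main fit. In it 31.2% of all tested genes were lower, 32.3% higher, 18.1% lower than each type and 3.62% strain-dependent. In C57BL6J alone 32.5% were lower than the mean of the other types, where 23.3% of all tested genes were. In the other direction 240 (15.5%) were higher, where 22.5% of all tested genes were. In the same libraries 249 were lower than each type, where 10.3% of all tested genes were. A pseudocount of 0.1 gave 65 strain-dependent genes, and leaving out each library in turn 22 to 61, with 22 to 25 without an AM library and 61 and 56 without the IM C57BL6J libraries. Using only the upper 50% by signal of the 6 lists left 557 regions (427 at promoters), and letting only the upper 50% of AM peaks exclude gave 6413 (3709 at promoters), so the number of regions depends on the peak threshold. Libraries with the same replicate number shared little (28 pairs of groups, median r 0.02, from -0.08 to 0.20). A replicate block gave 664 lower (42.8%) and 374 higher (24.1%) genes, where 31.6% and 32.5% of all tested genes were called. In 200-base windows, an alternative added after the data were seen like the windows met by no AM peak and leaving out both IM C57BL6J libraries, CCAAT was in 17.6% of those met by the regions and 39.7% of those met by peaks of all 8 lists. A motif window of 300 in place of 200 bases around the region's centre was not run, since no genome sequence was used. The unknown depth of the AM libraries limits what an absent peak shows.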
